A study of Homo sapiens with 6 samples.

Results

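The 51 genes described here encode proteins that copy DNA and divide the cell. They were chosen by symbol from the deposited table of expression values and make up 51 of the 58395 genes counted. Of these, 39 are S-phase genes, whose products license, fire and run replication forks or supply them with nucleotides, and 12 are mitotic genes, whose products drive and check chromosome segregation. RNA was sequenced from 6 clonal lines of HEK293, an established human cell line of embryonic kidney origin. In 3 lines (2, 8 and 9) the introduced protein was GST-3F, glutathione S-transferase with the tag written 3F, used as the control. In the other 3 lines (4, 11 and 12) it was NOCT ∆(2-15)-3F, the nocturnin protein without residues 2 to 15 and with the same tag. Each line was grown for 3 days and gave 1 library, and no line without an introduced protein was analysed here. A line is 1 clone, so a difference between constructs was judged against the spread among 3 clones of each. The p-values measure only that spread, which the fit estimates for each gene with help from all other genes. The promoter driving the constructs is not given in the sources used here.

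In a dividing cell, the origin recognition complex with CDC6 and CDT1 loads the MCM helicase onto DNA before S phase, and CDC45 and the GINS complex turn it into a moving fork. PCNA, the sliding clamp, then holds the polymerases on the template, while ribonucleotide reductase and thymidylate synthase supply the deoxynucleotides. Cyclin B with CDK1 brings the cell into mitosis, where the Aurora and Polo kinases and the BUB proteins order spindle assembly. E2F factors drive many genes of the first group, and complexes that bind the cell cycle genes homology region (CHR) drive many of the second, so the balance of both groups is often read as a view of proliferation.

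The libraries held 19729745 to 24422406 counts on genes and were close in depth. Reads on the GST construct numbered 46 to 88 in GST lines and 0 to 1 in NOCT lines, and those on the NOCT construct 46 to 82 in NOCT lines and 3 to 7 in GST lines, as labelled. Of 9 genes known from HEK293, 7 were at 1 CPM (read count relative to the scaled library size) or more in every line. The others were PAX2 and NEFM. PAX2 was at 3.86 to 5.70 CPM in GST lines and 0.747 to 1.30 CPM in NOCT lines. NEFM was at 6.88 CPM in NOCT line 12 and at 0.197 to 0.354 CPM in the other lines. The summed level of the 9 genes was 964 to 1287 CPM in GST lines and 1116 to 1809 CPM in NOCT lines. Most of it was VIM, at 679 to 947 CPM in GST lines and 780 to 1428 CPM in NOCT lines. None of 17 markers of fibroblasts, blood, endothelium or hepatocytes reached 1 CPM in every line. Their lists summed to at most 4.44 CPM in GST lines and 2.63 CPM in NOCT lines, and COL1A2, CD3E, HBB and TTR were at 0 throughout.

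Most promoters of each group carried the letters that its regulation is known for. A window from 250 bases before to 50 bases after the start was available from RefSeq (GRCh38.p14) for 46 of the 51 genes, all but MCM4, MCM5, CCNE2, AURKA and GINS4. Both strands were searched for TTCCCGC or TTGGCGC, core letters of E2F sites. They occurred in 22 of 35 S-phase promoters (62.9%), in 2 of 11 mitotic promoters (18.2%) and in 9.33% of all 27305 promoters. The CHR letters, TTTGAA or TTCGAA, occurred in 9 of 11 mitotic promoters (81.8%), in 2 of 35 S-phase promoters (5.71%) and in 16.6% of all promoters. CCAAT, the letters of the NF-Y site, occurred in 23 of 35 S-phase promoters (65.7%), in 10 of 11 mitotic promoters (90.9%) and in 35.7% of all. An A before TTGGCGC, or TTGG after a CHR, also completes the complement of CCAAT, so matches can overlap. A match describes the letters and not bound protein. Stretches of 40 bases around a match show what these letters look like in each group, 5′ to 3′ on the strand of the gene, with the searched letters or their reverse complement in capitals. PCNA, MCM6, E2F2 and POLA1 illustrate the E2F letters, and CDC20, MKI67, TOP2A and CDK1 the CHR letters, all in stretches outside the annotated gene. POLA1 has both E2F forms with a short spacer between them. The CCAAT letters or their complement stand in lower case in the stretches of MCM6, CDC20, TOP2A and CDK1, and overlap the CHR in that of MKI67.
PCNA, chr20:5126659-5126698, minus strand: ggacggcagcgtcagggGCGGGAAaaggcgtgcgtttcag
MCM6, chr2:135876510-135876549, minus strand: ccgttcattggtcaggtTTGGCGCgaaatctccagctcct
E2F2, chr1:23531252-23531291, minus strand: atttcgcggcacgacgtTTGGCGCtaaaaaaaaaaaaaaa
POLA1, chrX:24693781-24693820, plus strand: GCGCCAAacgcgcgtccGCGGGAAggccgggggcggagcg
CDC20, chr1:43358899-43358938, plus strand: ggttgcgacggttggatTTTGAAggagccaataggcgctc
MKI67, chr10:128126430-128126469, minus strand: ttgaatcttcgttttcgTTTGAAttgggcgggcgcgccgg
TOP2A, chr17:40418025-40418064, minus strand: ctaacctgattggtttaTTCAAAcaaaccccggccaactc
CDK1, chr10:60778153-60778192, plus strand: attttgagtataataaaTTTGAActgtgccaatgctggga

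All 51 genes were well expressed in all 6 lines, with 300 to 24199 counts per gene and library. Per transcript length (TPM), PCNA had the highest level at 459.9 ± 83.1 (SD over 6 lines), and TOP2A, the topoisomerase that untangles sister chromatids, followed at 417 ± 45.5. These ranges overlapped, from 343 to 571 TPM for PCNA and from 384 to 499.9 TPM for TOP2A. MCM3 at 279 ± 23.3 TPM and MCM7 at 261 ± 24.2 TPM came next and did not differ beyond their spread. The other subunits of the MCM hexamer were lower, with MCM4 at 104 ± 12.3 TPM, MCM2 at 75.6 ± 9.60 TPM, MCM6 at 74.0 ± 12.9 TPM and MCM5 at 66.0 ± 11.7 TPM. The lowest levels were those of GINS3 at 17.8 ± 3.48 TPM and GINS4 at 12.9 ± 1.93 TPM, both subunits of the GINS complex. The 12 mitotic genes had a median of 113 TPM and the 39 S-phase genes one of 55.9 TPM.

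None of the 51 genes passed the threshold between NOCT and GST lines in edgeR's quasi-likelihood test, in which the smallest Benjamini-Hochberg adjusted p among them was 0.161. In the same fit, 10 of 17261 genes tested (0.0579%) passed an adjusted p of 0.05, 0.0232% as higher and 0.0348% as lower in NOCT lines. At an unadjusted p of 0.05, 7 of the 51 genes passed (13.7%), against 13.9% of all genes. Of these, 5 were higher in NOCT lines (all genes, 7.38%) and 2 lower (all genes, 6.52%). For 8 of the 51 genes (15.7%) the range of the GST lines and that of the NOCT lines were separate, against 20.0% of all genes. NOCT lines were higher for 6 of the 8 (all genes, 10.5%) and lower for 2 (all genes, 9.54%). These shares were near or under the background. By DESeq2, 2 of the 51 genes were past an adjusted p of 0.05, where 2.94% of all genes were, and in the authors' deposited table it was 1 of 51, against 2.09% of its rows. Fewer cells in a phase and less RNA per cell cannot be told apart in these bulk libraries.

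The log2 fold changes (NOCT over GST) of the 51 genes were small. They ran from -0.56 for TYMS to 0.60 for CCNE2, with a median of 0.06, where the median over all genes was 0.00. For 37 genes the value was positive and for 14 negative, where all genes had 8747 positive and 8514 negative values. For 33 of 51 genes (64.7%) it lay within 0.2 of 0, against 50.9% of all genes. The 51 genes had a median of 66.0 TPM and all genes tested one of 10.2 TPM. These shares were not compared at matched abundance. The median was 0.08 for the 39 S-phase genes and 0.04 for the 12 mitotic genes. The genes together took 0.712% to 0.738% of all gene counts in GST lines and 0.752% to 0.777% in NOCT lines (3 lines each), a sum weighted towards the most abundant members and given without a test. These are shares of raw counts, without the factors that scale library size for CPM (0.96 to 1.01 in GST lines, 0.99 to 1.04 in NOCT lines). On CPM the groups overlapped. The median log2 deviation of the 51 genes from their 6-line means was -0.048, -0.042 and 0.026 in GST lines 2, 8 and 9. It was 0.017, 0.035 and 0.062 in NOCT lines 4, 11 and 12.

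**Figure D1:**
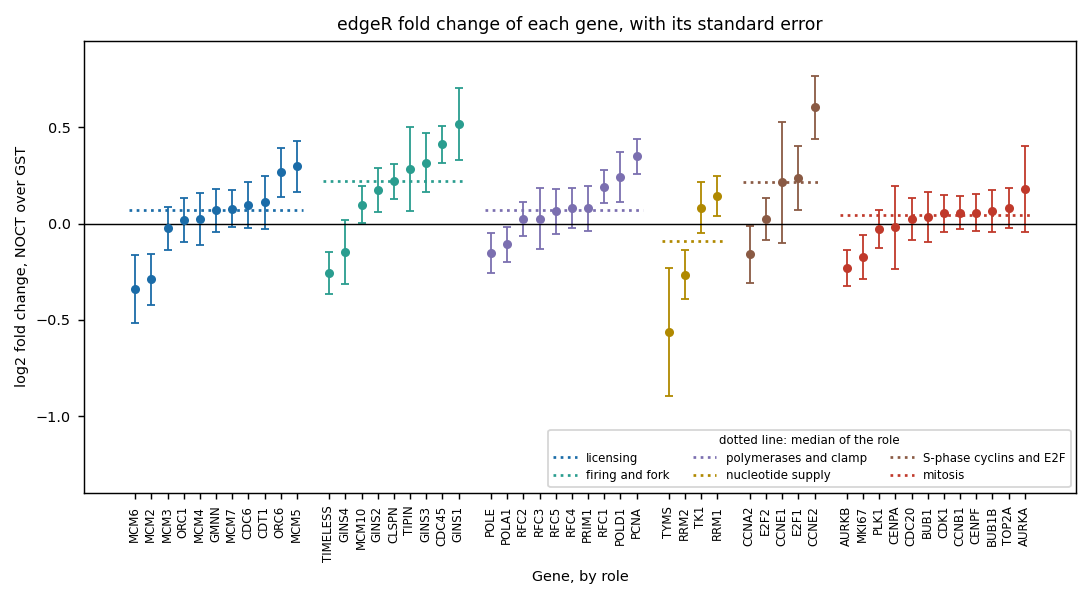
Log2 fold change of each of the 51 genes (NOCT over GST lines, 3 lines each, edgeR) with its standard error, grouped by role along the x axis; dotted lines give each role's median. Firing and fork genes have the highest median, 0.22, and 11 of the 12 mitotic genes lie within 0.2 of 0.

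The products of the 11 licensing genes form the helicase, load it at origins or, for GMNN, restrain its loading. Of these genes, 0 passed an unadjusted p of 0.05 in edgeR, and the median log2 fold change was 0.07. MCM5, a helicase subunit, was at 142, 144 and 168 CPM in GST lines 2, 8 and 9 and at 173, 164 and 219.6 CPM in NOCT lines 4, 11 and 12. The ranges overlapped, with NOCT line 12 above the rest, and the log2 fold change was 0.30 ± 0.13 (SE, edgeR adjusted p 0.368). MCM2, of the same ring, had 131, 140.4 and 156 CPM in the GST lines and 101, 111 and 138 CPM in the NOCT lines in the same order. It was lowest in NOCT lines 4 and 11 while NOCT line 12 lay inside the GST range, giving -0.29 ± 0.13 (edgeR adjusted p 0.378). ORC6, the smallest subunit of the origin recognition complex, was at 54.1, 39.6 and 50.6 CPM in GST lines and 60.3, 57.3 and 55.8 CPM in NOCT lines. Its groups did not overlap, and GST line 8 stood lowest (0.27 ± 0.13, edgeR adjusted p 0.400). MCM3 (-0.02) and MCM7 (0.08), the most abundant members of the list, were near 0. The MCM ring holds 1 copy of each of its subunits, and their values had both signs, from -0.34 for MCM6, named after its value was seen, to 0.30 for MCM5.

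The 9 genes of origin firing and fork progression held 4 of the 7 with an unadjusted p under 0.05, which is 44.4% of this short list against 13.9% of all genes. Their median was 0.22. CDC45 (ENSG00000093009, chr22:19479459-19520612, plus strand, GENCODE 29 on GRCh38), which joins the helicase at firing, was at 60.3, 68.1 and 70.2 CPM in the GST lines and 87.7, 92.2 and 84.4 CPM in the NOCT lines. All 3 NOCT lines were above all GST lines, at means of 66.2 ± 5.25 and 88.1 ± 3.91 CPM (SD, n = 3 each). The log2 fold change of 0.41 ± 0.10 missed the edgeR threshold (adjusted p 0.161) and passed that of DESeq2 (0.40, adjusted p 0.0325). In the authors' deposited table, whose name marks it as shrunken, it was 0.377 (adjusted p 0.0661). GINS1 (ENSG00000101003, chr20:25407727-25452628, plus strand), a GINS subunit, had 42.0, 42.6 and 44.6 CPM in GST lines and 68.7, 73.4 and 42.8 CPM in NOCT lines. NOCT lines 4 and 11 stood apart and NOCT line 12 lay among the GST lines (0.52 ± 0.19, edgeR adjusted p 0.280). Without a filter on low counts, GINS1 and CCNE2 were past the edgeR threshold (adjusted p 0.0465 and 0.0156), where 2.57% of 34539 genes were. TIMELESS, which with TIPIN keeps the fork and its checkpoint coupled, was at 76.9, 73.5 and 79.3 CPM in the GST lines and 60.3, 59.2 and 72.9 CPM in the NOCT lines. Its groups did not overlap, with every NOCT line below every GST line (-0.26 ± 0.11, edgeR adjusted p 0.339). Its partner TIPIN, named here after its values were seen, had 78.6 CPM in NOCT line 12 and 43.5 to 48.6 CPM in the other lines, and the genes beside it on the chromosome were at 0.26 (log2) above their mean in that line. CLSPN, the claspin gene, also so chosen, was higher in every NOCT line than in any GST line (0.22 ± 0.09, edgeR adjusted p 0.340).

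**Figure D2:**
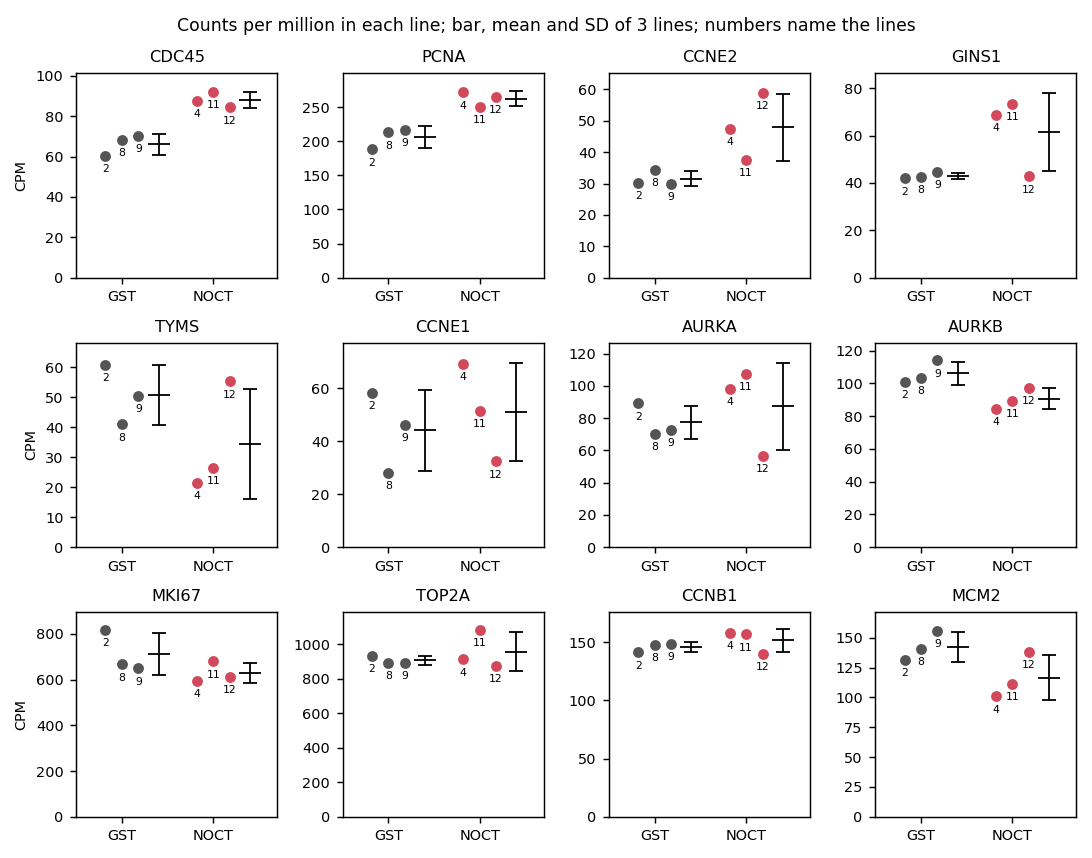
CPM of 12 genes in each line (points, with the line's number beneath) and the mean with SD of the 3 lines of each group (bars), on axes that start at 0. CDC45, PCNA and CCNE2 are higher in all NOCT lines than in all GST lines, AURKB is lower, and in the other 8 panels the groups overlap.

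Of the 10 genes for polymerases and the clamp with its loader, 1 had an unadjusted p under 0.05, and the median was 0.07. That gene was PCNA (ENSG00000132646, chr20:5114953-5126626, minus strand), with 188, 213 and 217 CPM in GST lines and 272, 250.3 and 265 CPM in NOCT lines. The groups did not overlap, at means of 206 ± 15.7 and 262 ± 10.9 CPM (SD, n = 3 each), and the log2 fold change was 0.35 ± 0.09 (edgeR adjusted p 0.194). RFC1, the large subunit of the clamp loader, was at 121, 123 and 114 CPM in GST lines and 136, 129 and 143 CPM in NOCT lines, again without overlap (0.19 ± 0.09, edgeR adjusted p 0.370). Another loader subunit, RFC2, had the narrowest range of all 51 genes, 81.5 to 90.5 CPM or 1.11-fold across the 6 lines, and a log2 fold change of 0.02. POLD1, the catalytic subunit of the lagging strand polymerase, was at 50.2, 50.2 and 53.0 CPM in the GST lines and 71.1, 59.6 and 50.7 CPM in the NOCT lines. NOCT lines 4 and 11 were above the GST range and NOCT line 12 was inside it (0.24 ± 0.13, edgeR adjusted p 0.443).

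The 4 genes of nucleotide supply gave 2 positive and 2 negative values. TYMS (ENSG00000176890, chr18:657604-673578, plus strand), which makes thymidylate, spanned the widest range of all 51 genes, 2.84-fold. It was at 60.9, 41.0 and 50.5 CPM in GST lines and 21.4, 26.5 and 55.3 CPM in NOCT lines. NOCT lines 4 and 11 were the lowest while NOCT line 12 was near the top, so the groups overlapped and the log2 fold change was -0.56 ± 0.33 (edgeR adjusted p 0.490). Without NOCT line 12 it was -1.09 with an edgeR adjusted p of 0.0153, in a fit where 5.42% of 17882 genes passed. RRM2, the cell cycle regulated subunit of ribonucleotide reductase, was at 96.6, 100.4 and 114 CPM in GST lines and 74.0, 99.5 and 85.2 CPM in NOCT lines. NOCT lines 4 and 12 were the lowest and NOCT line 11 lay inside the GST range (-0.27 ± 0.13, edgeR adjusted p 0.400). Its large subunit RRM1 had 153, 171 and 172 CPM in the GST lines and 205, 171 and 172 CPM in the NOCT lines, with NOCT line 4 the highest and the others at 153 to 172 CPM (0.14 ± 0.10, edgeR adjusted p 0.582).

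Among the 5 genes of S-phase cyclins and E2F factors, the E-type cyclins that start S phase varied most. CCNE2 (ENSG00000175305, chr8:94879770-94896678, minus strand) was at 30.3, 34.4 and 30.0 CPM in GST lines and 47.4, 37.6 and 58.9 CPM in NOCT lines. The NOCT lines were all above the GST lines but unlike each other, at 31.5 ± 2.46 against 48.0 ± 10.6 CPM (SD, n = 3 each). The log2 fold change of 0.60 ± 0.16 had an edgeR adjusted p of 0.1996 and a DESeq2 adjusted p of 0.0449. In the authors' deposited table, named as shrunken, it was 0.517 with an adjusted p of 0.0499837, the 1 call among the 51 genes there. CCNE1 had 58.2, 28.0 and 46.1 CPM in the GST lines and 69.1, 51.6 and 32.4 CPM in the NOCT lines, a 2.47-fold range in which both groups had high and low lines (0.21 ± 0.32, edgeR adjusted p 0.795). The order of the lines was thus not shared by CCNE1 and CCNE2, since NOCT line 12 was highest for CCNE2 and second lowest for CCNE1. E2F1, an activating factor of S-phase genes, was at 39.6, 51.3 and 53.5 CPM in GST lines and 66.0, 59.0 and 45.2 CPM in NOCT lines (0.24 ± 0.17, edgeR adjusted p 0.565). CCNA2, whose protein acts from S phase to early mitosis, was at 167, 109 and 134 CPM in GST lines and 121, 125 and 121 CPM in NOCT lines, with GST line 2 the highest (-0.16 ± 0.15, edgeR adjusted p 0.659).

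The 12 mitotic genes were the most even of the roles, with 11 log2 fold changes within 0.2 of 0 and 1 gene at an unadjusted p under 0.05. AURKB, the kinase of the chromosomal passenger complex, was that gene, at 101, 103 and 114 CPM in GST lines and 84.6, 89.5 and 97.3 CPM in NOCT lines. Every NOCT line was below every GST line (-0.23 ± 0.10, edgeR adjusted p 0.337). AURKA, the kinase of the spindle poles, had 89.2, 70.2 and 72.5 CPM in the GST lines and 97.9, 108 and 56.7 CPM in the NOCT lines. NOCT lines 4 and 11 were the highest and NOCT line 12 the lowest, so the groups overlapped (0.18 ± 0.22, edgeR adjusted p 0.756). MKI67, the gene of the proliferation marker Ki-67, was at 817, 666 and 649.7 CPM in GST lines and 596, 679.9 and 614 CPM in NOCT lines. GST line 2 was the highest and the groups overlapped (-0.17 ± 0.11, edgeR adjusted p 0.532). TOP2A had 934, 894 and 891 CPM in the GST lines and 912, 1086 and 875 CPM in the NOCT lines, with NOCT line 11 alone above the others (0.08 ± 0.10, edgeR adjusted p 0.766). CCNB1, cyclin B1, was at 141, 148 and 148 CPM in GST lines and 158, 157 and 140.1 CPM in NOCT lines, a 1.13-fold range (0.06 ± 0.09, edgeR adjusted p 0.804). PLK1, the Polo kinase, spanned 1.17-fold (-0.03 ± 0.10, edgeR adjusted p 0.919).

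**Figure D3:**
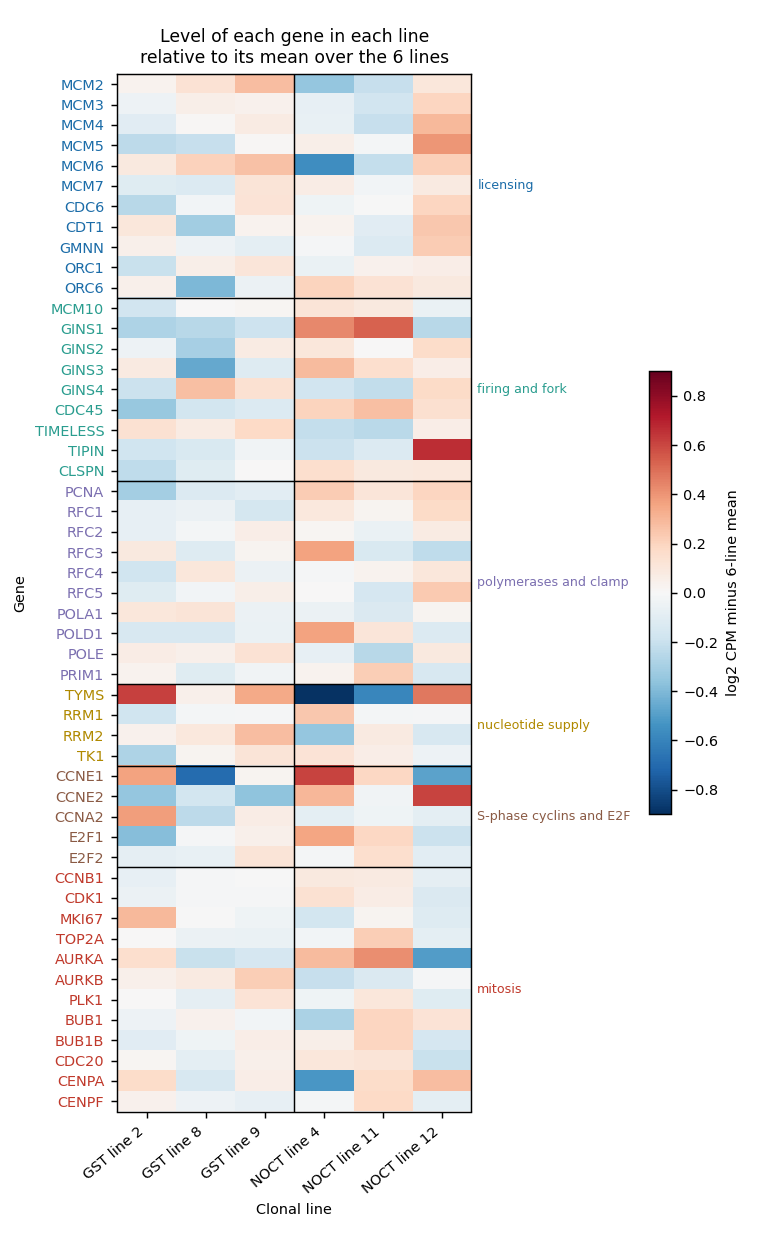
Log2 CPM of each of the 51 genes (rows, grouped by role) in each line (columns) minus the gene's mean over the 6 lines; red is above that mean and blue below. NOCT line 12 is red for all 11 licensing genes, NOCT line 11 is red for 11 of 12 mitotic genes, and TYMS and CCNE1 show the strongest colours.

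Single clones differed in the balance of both groups of genes more than the constructs did. For each line, the log2 CPM of each gene was taken relative to its mean over the 6 lines. The median of these deviations over the 39 S-phase genes was -0.08, -0.05 and 0.03 in GST lines 2, 8 and 9 and 0.03, -0.02 and 0.09 in NOCT lines 4, 11 and 12. Over the 12 mitotic genes it was 0.01, -0.04 and -0.00 in the GST lines and -0.02, 0.14 and -0.10 in the NOCT lines. NOCT line 11 was thus the highest for mitotic genes, and NOCT line 12 was at once the highest for S-phase genes and the lowest for mitotic ones.

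The mitotic median minus the S-phase median was 0.02 ± 0.07 over the GST lines and -0.03 ± 0.18 over the NOCT lines (SD, n = 3 each), so the difference of -0.04 was smaller than the spread within either group. In NOCT line 12 all 11 licensing genes were above their 6-line mean, 6 of them at the highest level of the 6 lines, while 8 of 12 mitotic genes were at the lowest. In NOCT line 11, 11 of 12 mitotic genes were above their mean, 6 of them at the highest level, and 2 of 11 licensing genes were above theirs. The genes of a line share its library, and the values are descriptions without a test.

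**Figure D4:**
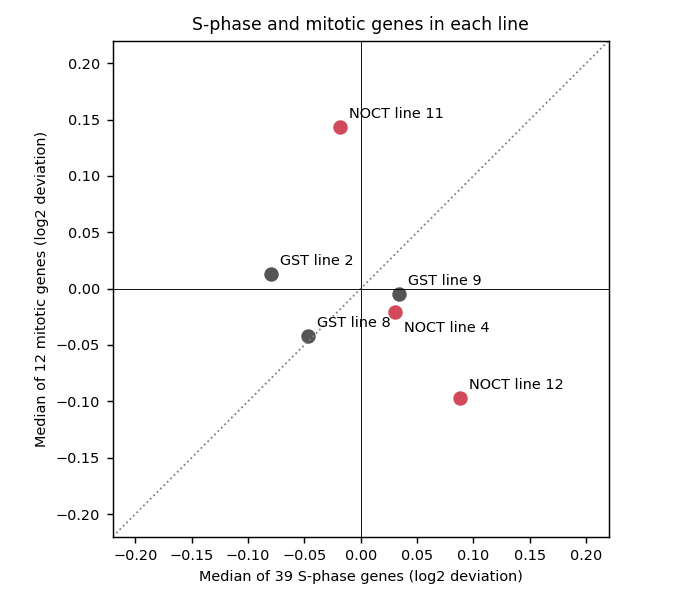
Median log2 deviation from the 6-line mean over the 39 S-phase genes (x axis) and over the 12 mitotic genes (y axis) in each line, with a dotted line of equality. NOCT line 11 lies highest on the mitotic axis at 0.14 and NOCT line 12 lies lowest there, at -0.10, while the GST lines and NOCT line 4 stay near 0.

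Part of the variation of single genes among the lines went with that of the genes beside them on the chromosome. For each gene, the neighbours were up to 50 genes to its left and 50 to its right whose mean was 1 CPM or more, and their median log2 deviation was taken in each line. Over the 51 genes in 6 lines (306 points, which share libraries and in part neighbours), gene and neighbours had a Pearson r of 0.754. Over all 14887 genes of at least 1 CPM r was 0.349 (89322 points). These r values come from sets of unlike abundance, with a median of 66.0 TPM for the 51 genes and 10.2 TPM for all genes tested. They were not compared at matched abundance. A neighbour median beyond 0.2 in size, a limit set after the values were seen, occurred in at least 1 line for 20 of the 51 genes. After the neighbours were subtracted, all 20 varied less over the 6 lines, and their median SD went from 0.251 to 0.131. For the other 31 genes it went from 0.126 to 0.121.

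Several genes on 1 chromosome had neighbours that deviated in the same lines, but not all members of a chromosome did. On chromosome 20, PCNA, GINS1 and E2F1 had neighbours at 0.25 to 0.37 in NOCT lines 4 and 11 and at -0.23 to -0.09 in the other lines. Taking the neighbours into the edgeR fit as an offset gave log2 fold changes of 0.09 for PCNA, 0.18 for GINS1 and -0.04 for E2F1. PCNA itself was at 265 CPM in NOCT line 12, where its neighbours were at -0.15. AURKA, the other member on chromosome 20, had neighbours at 0.21, -0.24 and -0.02 in GST lines 2, 8 and 9 and at 0.18, 0.16 and -0.29 in NOCT lines 4, 11 and 12, so GST line 2 went the other way from the 3 genes above. On chromosome 22, the neighbours of CDC45 and MCM5 were at 0.09 to 0.18 in NOCT lines and -0.22 to -0.08 in GST lines, and the offset gave 0.15 for CDC45 (edgeR adjusted p 0.394) and 0.01 for MCM5. TYMS on chromosome 18 had neighbours at 0.34, 0.21 and 0.29 in GST lines and -0.77, -0.25 and 0.17 in NOCT lines, and a value of -0.09 with the offset. In NOCT line 4 the neighbours of MCM6, RRM2, BUB1 and CENPA on chromosome 2 were at -0.41 to -0.33, and the 4 genes themselves, 3 of them named after their values were seen, were all at their lowest. In GST line 8 the neighbours of CDT1, ORC6, GINS2 and GINS3 on chromosome 16 were at -0.30 to -0.18, and all 4 genes, 3 of them named after their values were seen, were lowest there. PLK1, the other member on chromosome 16, had neighbours at 0.08 in that line and was lowest in NOCT line 12. What moved these neighbourhoods was not tested.

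For other genes the offset made less difference. CCNE2 was at 0.51 (edgeR adjusted p 0.115), TIMELESS at -0.25 (0.255), MCM2 at -0.25 (0.403), RFC1 at 0.21 (0.225), CLSPN at 0.19 (0.271) and AURKB at -0.18 (0.294), each adjusted p from edgeR. With the offset, 0 of the 51 genes passed the edgeR threshold, and 0.214% of all genes did. By role, the median was 0.11 with the offset and 0.22 without it for firing and fork genes, and 0.08 against 0.21 for S-phase cyclins and E2F factors. It changed sign for licensing genes, from 0.07 to -0.011, and for nucleotide supply, from -0.092 to 0.11, and was 0.07 both ways for polymerases and clamp and 0.04 against 0.03 for mitotic genes.

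**Figure D5:**
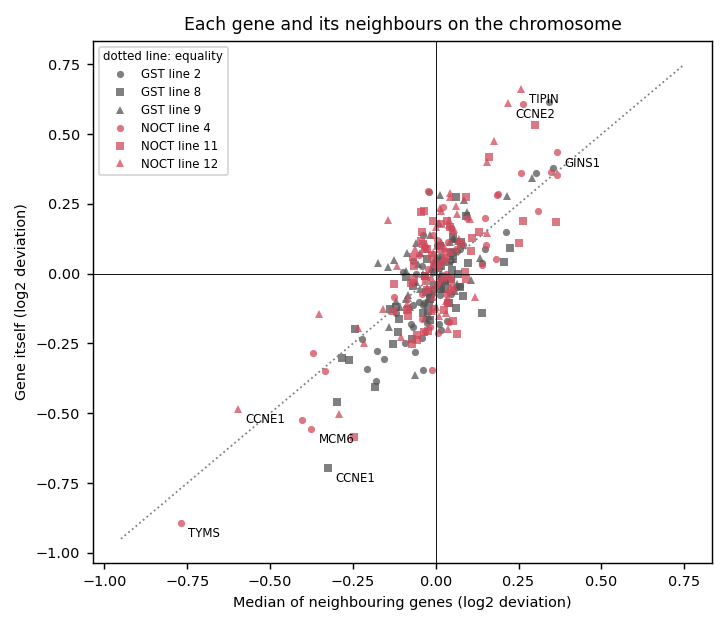
Log2 deviation of each of the 51 genes from its 6-line mean (y axis) against the median of its neighbours on the chromosome (x axis), 1 point per gene and line, with the dotted line of equality. The lowest point is TYMS in NOCT line 4, at -0.89 with its neighbours at -0.77, and r is 0.754 over 306 points.

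Other genes of the cell cycle, in 5 lists chosen with earlier results of these data known, were compared in the same fit. Of 132 genes 131 could be tested, and 0 passed the edgeR threshold. At an unadjusted p under 0.05, 19 were higher and 8 lower in NOCT lines (20.6%, against 13.9% of all genes), and the median log2 fold change was 0.06. Among 39 further replication genes 4 were higher and 2 lower at that level, with a median of 0.06, and MCM8, a helicase of recombination repair, had the smallest p (0.56 ± 0.16, edgeR adjusted p 0.215). It lies on chromosome 20 near PCNA, and its value with the neighbour offset was 0.26. Among 46 further mitotic genes 7 were higher and 1 lower, with a median of 0.04, and KIF23, a kinesin of cytokinesis, had the smallest p (0.37 ± 0.09, edgeR adjusted p 0.182).

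Inhibitors of the cycle and drivers of its G1 phase had medians on opposite sides of 0. Both lists were chosen with earlier results of these data known, so their counts and medians are descriptions and not a test. Of 15 brakes tested 14 had positive values (all genes, 8747 of 17261), with a median of 0.28. At an unadjusted p under 0.05, 6 were higher (all genes, 7.38%) and 0 lower (all genes, 6.52%). CDKN2C, an inhibitor of CDK4 and CDK6, was at 33.9, 36.9 and 35.9 CPM in GST lines and 52.9, 55.4 and 49.7 CPM in NOCT lines. The groups did not overlap, and the log2 fold change of 0.57 ± 0.10 did not pass in edgeR (adjusted p 0.0880). Of 14 G1 drivers 0 were higher and 4 lower at that level, with a median of -0.19. CCND2, cyclin D2, was at 212, 276 and 235 CPM in GST lines and 139, 168 and 165 CPM in NOCT lines, without overlap (-0.62 ± 0.13, edgeR adjusted p 0.122). By DESeq2, 3 of 15 brakes and 3 of 14 drivers passed, where 2.94% of all genes did, CDKN2C (adjusted p 0.000682) and CCND2 (adjusted p 0.00212) among them. In 17 genes of the replication checkpoint and repair, 2 were higher and 1 lower, with a median of 0.07, and ATR, the kinase that answers stalled forks, had -0.32 ± 0.10 (edgeR adjusted p 0.233).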

How the data were processed

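Counts were deposited as whole reads per gene for each of the 6 lines, from stranded libraries of 50 bp reads. Per the submitters' processing notes, the tools named are FastQC 0.10.1, MultiQC 1.0, cutadapt 1.8.1, Trimmomatic 0.33, STAR 2.5.2b, HTSeq 0.6.1p1 and DESeq2 1.16.1, with the build GRCh38; the annotation release is not given in the sources used here. The 5 rows that name no feature were left out of library sizes: reads without a feature were 26.5% to 30.6% of a file, ambiguous reads 2.02% to 2.41% and reads not uniquely aligned 13.3% to 14.6%. TPM values were computed by the authors and deposited in 1 table, in which the ratio of count to TPM scale between libraries was the same for 13698 of 13698 genes compared, to a relative tolerance of 1e-06. The deposited comparison table gives the authors' log2 fold changes, p-values and adjusted p-values, with a mean normalised signal and a test score per gene as the authors made them. Its name marks the fold changes as shrunken, so their size is not the same measure as the edgeR and DESeq2 values given here.

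The counts were tested with edgeR 4.0.16 in R 4.3.3 (filterByExpr, TMM factors, quasi-likelihood test, Benjamini-Hochberg adjustment over 17261 genes). CPM are counts scaled by TMM library sizes, and SE were derived from the F statistic. DESeq2 1.42.0, limma 3.58.1, other scalings and filters, the neighbour offset and leaving out each line were alternatives. The edgeR step was checked on simulated data.

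The genes and lists were chosen with earlier results of these data known. Genes named by rule are, in each of 6 roles, the 3 with the smallest p and the most abundant one by TPM, any called by edgeR, DESeq2 or the authors, the 4 widest and 4 narrowest ranges, and PCNA, MKI67, TOP2A and CCNB1. Of each other list it is the gene with the smallest p.

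Coordinates are GENCODE 29 (GRCh38), matched by Ensembl identifier. Counting used strand: of genes lying within exons of an opposite-strand gene 70 of 307 reached 10 counts, against 2 of 428 within same-strand exons. Named pseudogenes exist for 9 of the 51 genes, PCNA, TYMS, RRM2, MKI67 and AURKA among them, and exons of 6 overlap another gene on the same strand, POLD1 and RRM2 among them, so their counts are less certain.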

Additional observations from a re-analysis of the deposited data

How the results depend on the processing

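No paired analysis was made, because the line numbers name clones and the labels link no GST line to a NOCT line. In the edgeR analysis, 0 of the 51 genes were called higher and 0 lower. Called higher were 2 by DESeq2 (CDC45 and CCNE2) and 2 without a filter on low counts (GINS1, adjusted p 0.0465, and CCNE2, 0.0156). When 1 line was left out, 0 to 1 were called higher and 0 to 2 lower; the calls came without NOCT line 12 (GINS1 0.72, adjusted p 0.00789; TYMS -1.09, 0.0153; MCM6 -0.57, 0.0385), where 5.42% of all genes were called. Genes at an unadjusted p under 0.05, a count added after seeing the data, numbered 7, and 3 to 15 under the alternatives. There were 15 with spike-in totals as library sizes, 11 without a filter, 13 without NOCT line 12, 4 without GST line 8 and 3 without NOCT line 4. The share of all genes at that level was taken only in the main edgeR fit (13.9%). The counts under the alternatives therefore have no background beside them and are not a result about the 51 genes.

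With spike-in totals, which shifted the median of all genes to 0.15, the median log2 fold change was 0.23 for S-phase genes, 0.19 for mitotic genes and 0.21 for all 51. On log2(TPM + 1) it was 0.17 for S-phase genes and 0.14 for all 51, and on log2(TPM + 0.1) 0.17 and 0.15. The median of all genes also shifted there, to 0.07 on log2(TPM + 1) and 0.08 on log2(TPM + 0.1). Leaving out 1 line gave 0.04 to 0.13 for S-phase genes, -0.03 to 0.11 for mitotic genes and 0.04 to 0.08 for all 51. The mitotic minus S-phase difference of -0.04 ran from -0.135 to 0.03 when 1 line was left out, above 0 without NOCT line 12. Other cell cycle genes called numbered 0, and 7 by DESeq2 (all genes, 508 of 17261), 6 without a filter (888 of 34539), 1 with the neighbour offset (MYC; 37 of 17261) and 0 to 8 with 1 line left out, the 8 without NOCT line 12 (970 of 17882).

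Of 400 recomputed log2 fold changes of the 25 genes named by rule, 21 changed sign, and 16 genes never did. With the neighbour offset these were CCNA2 (0.081), E2F1 (-0.043), PLK1 (0.022) and RRM2 (0.114). With spike-in totals they were MCM3 (0.12) and PLK1 (0.121). On log2(TPM + 1) MCM3 was at 0.0534 and PLK1 at 0.0563, and on log2(TPM + 0.1) at 0.0536 and 0.0569. With 1 line left out, AURKA ran from -0.0021 (without NOCT line 11) to 0.408, TOP2A from -0.025 (without NOCT line 11) to 0.137, CCNA2 from -0.309 to 0.0049 (without GST line 2), CCNE1 from -0.074 (without NOCT line 4; -0.039 without GST line 8) to 0.462, MCM3 from -0.142 to 0.045 (without NOCT line 11; 0.0019 without NOCT line 4), PLK1 from -0.096 to 0.027 (without GST line 9; 0.013 without NOCT line 12), and RFC2 from -0.013 (without NOCT line 12; -0.011 without GST line 2) to 0.059. The causes were not tested. With 3 clones a group, an exact permutation test of 1 value cannot go below p = 0.1.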

Other observations

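CDKN1A, the p21 inhibitor that answers damage and arrest signals, was at 127 CPM in NOCT line 12 and at 49.4 to 79.0 CPM in the other lines. That is the line in which all 11 licensing genes were above their mean and 8 of 12 mitotic genes were the lowest. CCND1, cyclin D1, was at 15.1 CPM in the same line and at 38.0 to 52.4 CPM in the others. Both genes were singled out after their values were seen, they come from 1 clone, and their part in the balance of S-phase and mitotic genes was not tested.

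MYC, a transcription factor of growth genes, was at 53.6, 42.5 and 52.7 CPM in GST lines 2, 8 and 9 and at 14.1, 12.2 and 32.1 CPM in NOCT lines 4, 11 and 12. The groups did not overlap (log2 fold change -1.35 ± 0.34, SE, edgeR adjusted p 0.184). With the neighbour offset the value was -1.64 with an edgeR adjusted p of 0.0315, and its neighbours were at 0.49 in NOCT line 12 and at -0.13 to -0.06 in the other lines. MYC too was singled out after its values were seen.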
